A study of Mus musculus with 20 samples.

Results

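The proteasome subunit genes examined here are Psma1 to Psma7, Psmb1 to Psmb7, Psmc1 to Psmc6 and Psmd1 to Psmd14. Every probe set annotated to 1 of these symbols alone was taken, which gave 63 of the 22626 probe sets that are not array controls and covered 34 of 34 genes, out of 12393 genes with a probe set of their own. The 3 probe sets of the immunoproteasome genes Psmb8, Psmb9 and Psmb10 were left out. Total RNA from mouse brain had been hybridised to 20 single-channel oligonucleotide arrays, and the deposited values are linear intensities, 1 per probe set and array. The mice were either knock-in, with an allele that the labels do not name, or wild type, and the tissue was cerebellum or forebrain. With 3 arrays per genotype and region at 4 weeks and 2 at a later age, there are 8 groups. The descriptions give the later age as 11 weeks and the titles as 12, and it is called 11 weeks here. No strain, sex or promoter is given in the labels, and nothing in them says that the arrays come from separate mice, so the p-values rest on a spread between samples that may be only technical.

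Forebrain arrays were assigned by the short code in the title, since for 7 of the 10 the source field says cerebellum, and for knock-in forebrain 4 weeks replicate 3 the description does as well. The markers followed the code: the Purkinje cell gene Pcp2 read 49.96 to 579 on the 10 arrays called forebrain and 38010.2 to 55244 on the 10 called cerebellum, and Bcl11b, a transcription factor of cortical and striatal neurons, read 3472 to 6182 and 13.8 to 31.9. In bulk tissue such as this, fewer cells of a type and less RNA per cell cannot be told apart. The 3'/5' ratio of GAPDH probe sets, a sign of RNA quality, ran from 0.744 to 0.903 over the arrays. In cerebellum at 11 weeks it was 0.848 and 0.903 on knock-in and 0.842 and 0.823 on wild-type arrays. In forebrain at 4 weeks it was 0.827, 0.890 and 0.859 on knock-in and 0.744, 0.828 and 0.806 on wild-type arrays. The same ratio of actin probe sets was 1.09 and 1.11 on knock-in and 1.06 and 1.11 on wild-type arrays in the first of these groups, and 1.13, 1.22 and 1.09 against 1.23, 1.16 and 1.15 in the second, and overlapped in both. The part of RNA quality in the results was not tested.

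The proteasome is the large protease that degrades proteins tagged with ubiquitin in the cytosol and nucleus. Its barrel-shaped core particle is built of outer rings of alpha subunits (Psma genes), which gate the entrance, and inner rings of beta subunits (Psmb genes), of which Psmb5, Psmb6 and Psmb7 carry the peptidase sites. The regulatory particle that caps the barrel has a base with a ring of ATPases (Psmc genes), which unfold substrates, and scaffold and ubiquitin-binding subunits (Psmd1, Psmd2, Psmd4). Its lid holds the other Psmd subunits, among them the deubiquitinase Psmd14, while Psmd5, Psmd9 and Psmd10 are chaperones that help to assemble the base and do not stay in the finished particle. Neurons use the proteasome in protein quality control and in turnover of synaptic proteins, and it has long been studied in neurodegeneration.

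Of the 63 probe sets, 53 were kept for testing, among them at least 1 for every gene, because they lay above the 40th percentile of the array on at least 2 arrays (median limit 681). This limit was 681.9 to 774.8 on knock-in and 605.5 to 680.1 on wild-type arrays, so the dim part of the range lay higher on every knock-in array. The 10 left out never read above 533 and belong to Psma1, Psma5, Psma6, Psmb1, Psmc1, Psmc6, Psmd11 and Psmd7, each of which has another probe set that was kept. Where a gene had several kept probe sets, the one with the highest mean stands for it. These probe sets were above the limit on all 20 arrays for 33 of the 34 genes and on 17 for Psmd10.

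Few proteasome transcripts differed between knock-in and wild-type mice, some up and others down. The called differences were small at the brightest probe set of each gene, while a dim second probe set of Psmc4 rose by 0.78 log2 units. Differences are given as knock-in minus wild type on the log2(intensity + 16) scale with the standard error of a limma model of all arrays, and a probe set was called at a Benjamini-Hochberg adjusted p under 0.05 over all 15627 kept probe sets. Within a single region and age, 0 of 53 proteasome probe sets were called by limma in each of the 4 comparisons. The share called among all kept probe sets was 0.0512% in cerebellum at 4 weeks, 0.346% at 11 weeks, 7.37% in forebrain at 4 weeks and 0.864% at 11 weeks. At an unadjusted p under 0.05 the proteasome counts were, in the same order, 3, 6, 8 and 6. These are 5.66%, 11.3%, 15.1% and 11.3% of 53, beside 13.3%, 14.8%, 25.8% and 15.6% of all kept probe sets at that level. Averaged over both ages, 0 were called in cerebellum, against 3.35% of all, and 7 had an unadjusted p under 0.05 (13.2% of 53, against 21.5% of all). In forebrain 1 was higher and 1 lower (3.77% of 53, against 13.5% of all, 8.36% higher and 5.13% lower). In the mean of the 4 region and age groups, the comparison with the smallest errors, 3 were higher and 5 lower. These 8 are 15.1% of 53, against 23.7% of all kept probe sets, 15% higher and 8.65% lower, so the proteasome share was the lower one, a difference that was not tested. Of the 6463 probe sets at least as bright as the lower quartile of the 53, 22.0% were called, 9.30% higher and 12.7% lower. The count of 8 was 2 without wild-type forebrain 11 weeks replicate 1 and 4 or 5 without any 1 of 9 other arrays, and with quantile normalization it was 4 (1 higher, 3 lower). The 2 in forebrain became 0 without any 1 of knock-in 11 weeks replicates 1 and 2 and wild-type 11 weeks replicate 1, and 1 without knock-in 4 weeks replicate 1 or 2. The shares of all kept probe sets called in these settings are not given here. A change particular to proteasome genes therefore cannot be told from a general one.

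**Figure D1:**
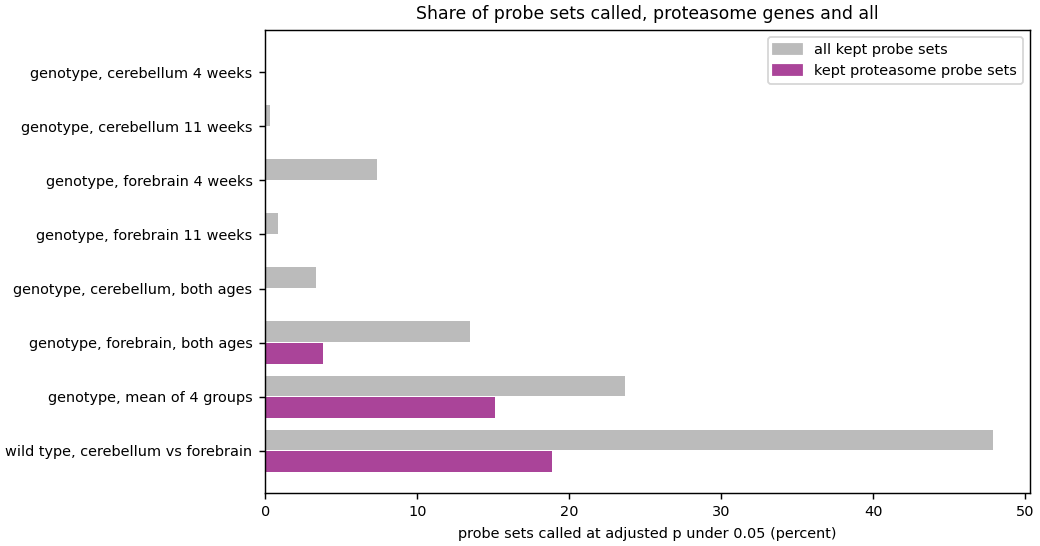
Percent of probe sets called at an adjusted p under 0.05 (x axis) in each comparison (y axis), for the 53 kept proteasome probe sets (purple) and all 15627 kept probe sets (grey). The purple bar is absent in the first 5 comparisons, where 0 were called, and reaches 15.1% in the mean of 4 groups and 18.9% between wild-type regions.

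The median difference of the 53 probe sets in the mean of 4 groups was -0.01, beside 0.03 over all kept probe sets and -0.02 over the bright ones, with 24 above 0 and 29 below. Counting only the main probe set of each gene, Psmb2 was higher, Psmd4, Psmc1, Psmd8 and Psmd10 were lower, and 29 of 34 genes were not called. Over all genes, the main probe set was called for 2243 of 9105. The remaining 3 calls, Psmb1, Psmc4 and Psmd11, were made on second probe sets whose gene's main probe set was not called.

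**Figure D2:**
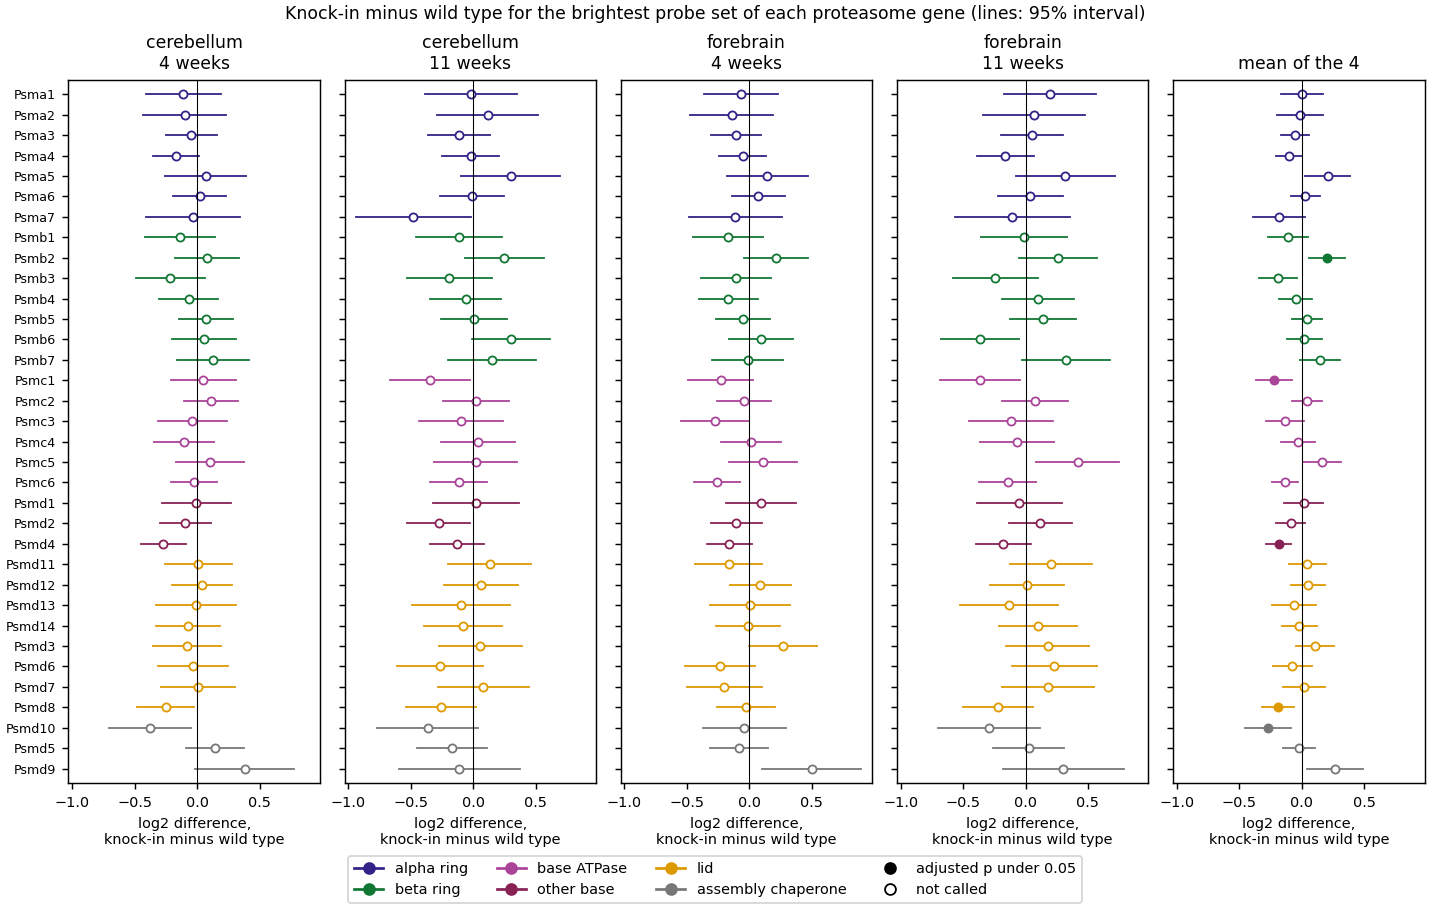
Log2 difference between knock-in and wild type (x axis) for the main probe set of each of the 34 genes (y axis, by role), in the 4 region and age groups and in their mean, with 95% intervals as lines. Filled points are called: 0 in each single group and 5 in the mean, where every interval lies between -0.45 and 0.49.

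Psmd4 is the base subunit that binds ubiquitin chains and hands substrates to the proteasome. Psmd4 read 7539, 8060.2 and 7189 on the knock-in arrays and 8937, 8951 and 9606 on the wild-type arrays in cerebellum at 4 weeks, and 8045 and 8456 against 8851 and 9213 at 11 weeks. Forebrain intensities of Psmd4 were 7862, 7526 and 7314 on knock-in and 9039, 8380.1 and 7987 on wild-type arrays at 4 weeks, and 7977 and 8313 against 9154 and 9254 at 11 weeks. Knock-in arrays all lay below the wild-type arrays they were compared with, in all 4 groups, which held in the lower direction for 0.998% of all kept probe sets. Group means were 7596 ± 439 against 9164 ± 382 in cerebellum and 7567 ± 276 against 8469 ± 532 in forebrain at 4 weeks (SD, n = 3). In cerebellum the difference was -0.27 at 4 weeks and -0.13 at 11 weeks, and in forebrain -0.16 and -0.18, with -0.18 ± 0.05 as the mean, 1.14-fold lower (adjusted p = 0.0121). The call held in all 30 alternatives computed, with an adjusted p of at most 0.0391. A second Psmd4 probe set, 1425859_a_at, did not follow it: its difference was -0.03 ± 0.05 (adjusted p = 0.743). The dim 1451725_a_at gave -0.29 ± 0.30 (adjusted p = 0.506).

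Psmc1 is an ATPase of the base. Psmc1 read 5742, 4663 and 5182 on the knock-in arrays and 5071, 5206 and 4734 on the wild-type arrays in cerebellum at 4 weeks, and 4402 and 5064 against 5465 and 6627 at 11 weeks. Forebrain intensities of Psmc1 were 4844, 5467 and 5187 on knock-in and 7157, 5356 and 5794 on wild-type arrays at 4 weeks, and 4856 and 5396 against 6698 and 6467 at 11 weeks. The genotypes did not overlap at 11 weeks in either region, with knock-in lower, and overlapped in both regions at 4 weeks. With 2 arrays per genotype, such separation was common at 11 weeks. Of the 53 probe sets, 11 were higher and 10 lower without overlap in cerebellum, and 12 and 11 in forebrain. These are 39.6% and 43.4% of 53, and the shares over all kept probe sets are not given here. Lack of overlap at 11 weeks is therefore only a description, here and for the genes below. The mean difference of Psmc1 was -0.22 ± 0.07, 1.17-fold lower (adjusted p = 0.0296). The call was lost without knock-in cerebellum 11 weeks replicate 1 (adjusted p = 0.0739), wild-type cerebellum 11 weeks replicate 2 (adjusted p = 0.0817), knock-in forebrain 11 weeks replicate 1 (adjusted p = 0.0679) and wild-type forebrain 11 weeks replicate 1 (adjusted p = 0.0641). The difference in forebrain averaged over ages, -0.30 ± 0.10, was not called (adjusted p = 0.0551). Between the ages the genotype difference moved by -0.27 ± 0.14, which did not pass (adjusted p = 0.692).

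Psmd8 is a lid subunit. Psmd8 read 6315, 7551 and 6426 on the knock-in arrays and 8179.6, 7806 and 8096 on the wild-type arrays in cerebellum at 4 weeks, and 6793 and 6906 against 8350.0 and 8062 at 11 weeks. Forebrain intensities of Psmd8 were 6355, 6775 and 7815 on knock-in and 6741, 7720.5 and 6835 on wild-type arrays at 4 weeks, and 6765 and 5609 against 6976 and 7369 at 11 weeks. Knock-in arrays were the lower ones without overlap in cerebellum at both ages and in forebrain at 11 weeks, while in forebrain at 4 weeks the genotypes overlapped. Its mean difference was -0.19 ± 0.06 (adjusted p = 0.0344). Leaving out any 1 of 13 of the 20 arrays ended the call, with an adjusted p from 0.0527 to 0.0957, the last without knock-in forebrain 11 weeks replicate 2.

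Psmd10, also known as gankyrin, is an assembly chaperone that binds the ATPase Psmc4. Psmd10 read 609.6, 656 and 819 on the knock-in arrays and 831, 978 and 898 on the wild-type arrays in cerebellum at 4 weeks, and 598 and 859 against 1035 and 832 at 11 weeks. Forebrain intensities of Psmd10 were 783, 829 and 802 on knock-in and 746, 1028 and 739 on wild-type arrays at 4 weeks, and 845 and 860.3 against 1042 and 1052 at 11 weeks. The genotypes did not overlap in cerebellum at 4 weeks and forebrain at 11 weeks, where knock-in was lower, and overlapped in the other groups. Its mean difference was -0.27 ± 0.09, 1.20-fold lower (adjusted p = 0.0365), with intensities close to the filter limit. It lost the call without any 1 of 12 arrays (adjusted p from 0.0521 to 0.1, the highest without knock-in cerebellum 11 weeks replicate 1). Averaged over ages, the difference in cerebellum was -0.37 ± 0.12 (adjusted p = 0.098), and for Psmd4 and Psmd8 it was -0.20 ± 0.07 and -0.26 ± 0.09 (adjusted p = 0.0984 and 0.1), the 3 smallest p of that comparison, none of them called.

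Psmb2, a beta ring subunit without peptidase activity, was the only gene whose main probe set was called higher. Psmb2 read 6441, 6481 and 5826 on the knock-in arrays and 6379, 5151 and 6278 on the wild-type arrays in cerebellum at 4 weeks, and 5934 and 7409 against 5705 and 5452 at 11 weeks. Forebrain intensities of Psmb2 were 6468, 6122 and 6706 on knock-in and 6347, 5605 and 4787 on wild-type arrays at 4 weeks, and 7065 and 6870.3 against 5653 and 5979.8 at 11 weeks. At 11 weeks both knock-in arrays lay above both wild-type arrays in either region, and at 4 weeks the genotypes overlapped. Its mean difference was 0.20 ± 0.07, 1.15-fold higher (adjusted p = 0.0428). Without any 1 of 14 of the 20 arrays the adjusted p was between 0.0569 and 0.117, and the call was lost.

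**Figure D3:**
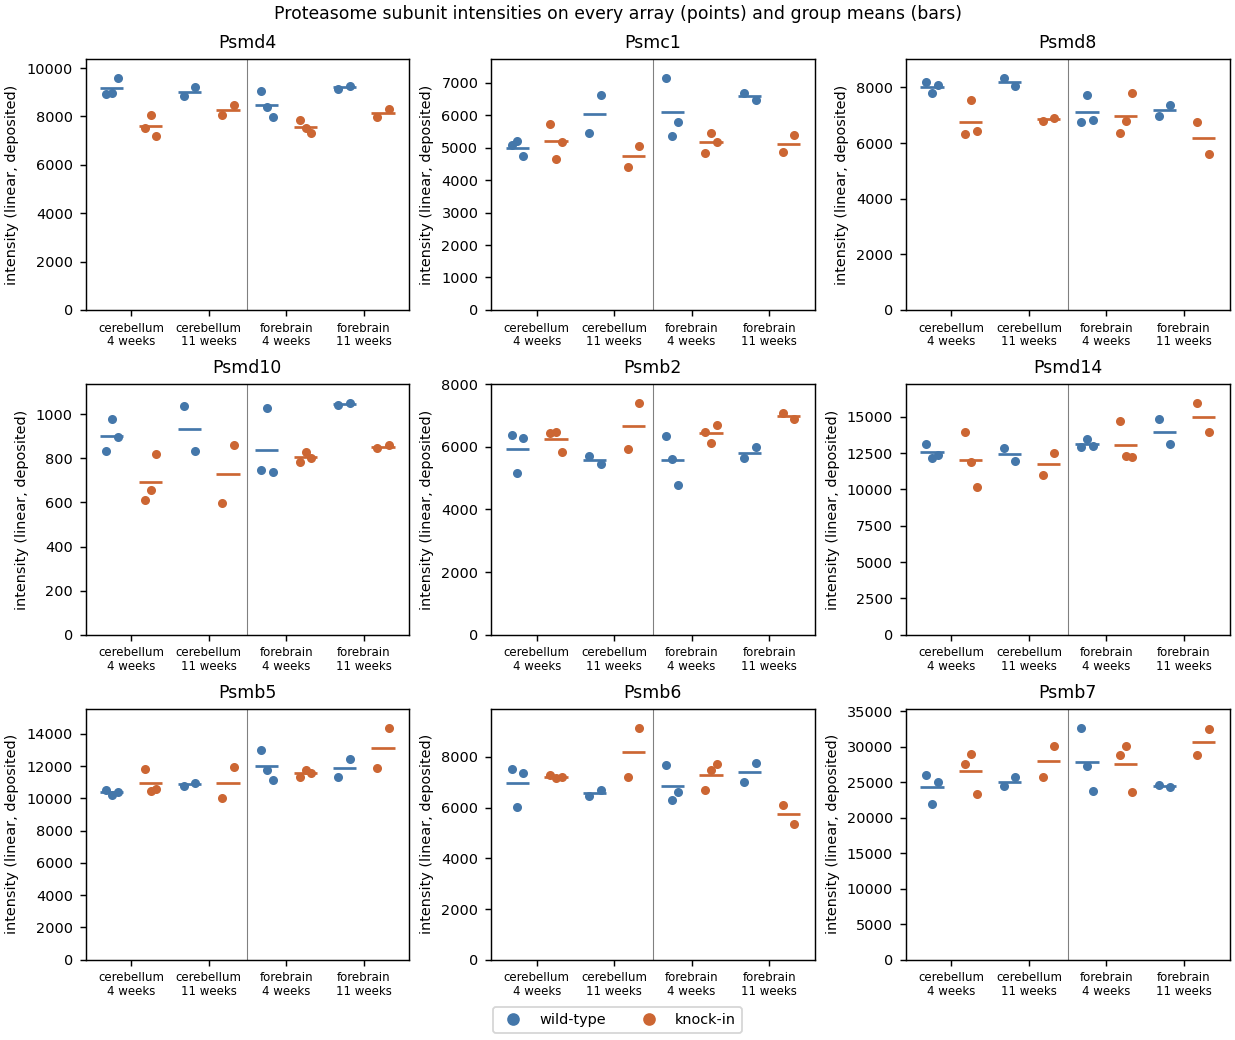
Deposited intensity (y axis, linear from 0) of 9 proteasome genes on each array (points) with group means (bars), wild type in blue and knock-in in orange, for each region and age (x axis). For Psmd4 the orange points lie below the blue ones in all 4 pairs of groups, while for the catalytic Psmb5, Psmb6 and Psmb7 and for Psmd14 the order changes between groups or the points overlap.

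The promoters of the 4 genes whose main probe set was called lower are shown with 2 short motifs marked, neither of which all 4 hold. The 250 bases before the transcription start, from RefSeq on GRCm38.p6, could be matched for 28 of the 34 genes, as 30 windows, and not for Psmb1, Psmb2, Psmb7, Psmc3, Psmd3 and Psmd7. In the windows below, read 5′ to 3′ on the gene's strand, capitals mark each match, on either strand, of CCGGAAG, the core bound by ETS family factors, and of GGGCGG, the GC box bound by Sp factors. They lie at chr3:95042615-95042864, minus strand (Psmd4), chr12:100109952-100110201, plus strand (Psmc1), chr7:29180674-29180923, minus strand (Psmd8) and chrX:140956712-140956961, minus strand (Psmd10).
Psmd4: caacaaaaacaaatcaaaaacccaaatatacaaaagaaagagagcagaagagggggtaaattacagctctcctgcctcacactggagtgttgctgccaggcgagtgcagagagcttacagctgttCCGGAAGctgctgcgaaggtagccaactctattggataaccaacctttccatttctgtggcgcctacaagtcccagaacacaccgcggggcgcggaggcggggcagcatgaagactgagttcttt
Psmc1: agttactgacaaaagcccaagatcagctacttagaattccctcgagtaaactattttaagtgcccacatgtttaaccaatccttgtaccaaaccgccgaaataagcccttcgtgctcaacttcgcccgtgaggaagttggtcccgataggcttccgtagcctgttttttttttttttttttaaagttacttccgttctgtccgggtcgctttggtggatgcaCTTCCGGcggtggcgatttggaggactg
Psmd8: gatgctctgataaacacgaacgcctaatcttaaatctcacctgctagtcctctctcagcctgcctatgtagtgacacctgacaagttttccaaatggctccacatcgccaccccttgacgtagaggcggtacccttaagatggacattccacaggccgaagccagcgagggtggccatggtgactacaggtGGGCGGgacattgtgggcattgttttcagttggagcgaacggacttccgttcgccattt
Psmd10: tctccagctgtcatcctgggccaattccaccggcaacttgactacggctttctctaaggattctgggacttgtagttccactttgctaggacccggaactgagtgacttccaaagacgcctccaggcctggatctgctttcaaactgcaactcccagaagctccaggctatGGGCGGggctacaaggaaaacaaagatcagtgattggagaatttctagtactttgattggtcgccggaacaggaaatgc
Psmd4 and Psmc1 each hold 1 match of the ETS core and no GC box, whereas Psmd8 and Psmd10 each hold 1 GC box and no ETS core. Over both strands, the ETS core was in 33.3% of the 30 proteasome windows and 6.91% of all 32851 windows of that length, and the GC box in 56.7% and 32.7%. The antioxidant response element core TGACNNNGC, to which Nfe2l1, the factor that raises proteasome genes when the proteasome is inhibited, can bind, was in 16.7% and 10.2%, in Psmb5, Psmb6, Psmc6, Psmd9 and Psmd12. CCAAT was in 36.7% and 33.8%, and TATAAA in 10% and 12.4%. The E box CACGTG was in 6.67% and 6.02%, and TGACGTCA, the cyclic AMP response element, in 0% and 1.55%. Matches of different motifs may overlap at a position, and a match describes the letters alone.

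The 3 calls on second probe sets were not shared by the other probe sets of the same genes. For Psmb1, a beta ring subunit, the main probe set 1448166_a_at gave -0.11 ± 0.07 (adjusted p = 0.3) and 1420053_at gave 0.28 ± 0.08 (adjusted p = 0.0193). Probe set 1420053_at of Psmb1 read 988, 1179 and 993 on the knock-in arrays and 1201, 1092 and 929.6 on the wild-type arrays in cerebellum at 4 weeks, and 1216 and 1430.3 against 927 and 1051 at 11 weeks. Forebrain intensities of probe set 1420053_at of Psmb1 were 1366, 1395 and 1237 on knock-in and 1087, 770.4 and 1075 on wild-type arrays at 4 weeks, and 1215 and 1331 against 957 and 1117 at 11 weeks. Knock-in arrays were higher without overlap in 3 of the 4 groups, all but cerebellum at 4 weeks. In forebrain averaged over ages it was 0.38 ± 0.11 higher (adjusted p = 0.0394). That call was lost without 6 of 10 arrays (adjusted p up to 0.151, without wild-type forebrain 11 weeks replicate 1), and in 11 of all 18 alternatives computed. Its call in the mean of 4 was lost without knock-in cerebellum 11 weeks replicate 2 (adjusted p = 0.0526) and wild-type forebrain 11 weeks replicate 1 (adjusted p = 0.0543). Counting changes of processing too, it was lost in 4 of 28 alternatives (difference down to 0.17, adjusted p up to 0.13).

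For Psmc4, an ATPase of the base, the main probe set 1416291_at gave -0.03 ± 0.06 (adjusted p = 0.775), and the dim 1416290_a_at, above the filter limit on 14 arrays, gave 0.78 ± 0.24 (adjusted p = 0.0277). Probe set 1416290_a_at of Psmc4 read 639, 1503 and 306 on the knock-in arrays and 792, 453 and 845 on the wild-type arrays in cerebellum at 4 weeks, and 2006 and 2729 against 631 and 826 at 11 weeks. Forebrain intensities of probe set 1416290_a_at of Psmc4 were 744, 798 and 692 on knock-in and 485, 1117 and 934 on wild-type arrays at 4 weeks, and 2384 and 1885 against 657 and 786 at 11 weeks. The 4 knock-in arrays at 11 weeks read higher than the wild-type arrays of their region, and at 4 weeks the genotypes overlapped in both regions. Its genotype difference was larger at 11 weeks than at 4 by 1.66 ± 0.47, which did not pass after adjustment (adjusted p = 0.524). The mean difference lost its call without knock-in cerebellum 11 weeks replicate 2 (adjusted p = 0.0658), wild-type cerebellum 11 weeks replicate 1 (adjusted p = 0.0622), knock-in forebrain 11 weeks replicate 1 (adjusted p = 0.0584) and wild-type forebrain 11 weeks replicate 1 (adjusted p = 0.0635).

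Psmd11, a lid subunit whose overexpression is known to raise proteasome assembly, has 5 kept probe sets. The main one, 1437080_s_at, gave 0.05 ± 0.07 (adjusted p = 0.676), while 1440253_at fell by 0.29 ± 0.07 (adjusted p = 0.0116). Probe set 1440253_at of Psmd11 read 9339, 10725 and 11403 on the knock-in arrays and 11292, 13008 and 9999.7 on the wild-type arrays in cerebellum at 4 weeks, and 10203 and 9591 against 12151 and 10952 at 11 weeks. Forebrain intensities of probe set 1440253_at of Psmd11 were 10117, 10220.3 and 8401 on knock-in and 10762, 11579.9 and 13790.1 on wild-type arrays at 4 weeks, and 8821 and 9265 against 13967 and 11652 at 11 weeks. Knock-in arrays were lower without overlap in 3 of the 4 groups, all but cerebellum at 4 weeks, and the call held in all 29 alternatives computed. In forebrain averaged over ages it fell by 0.41 ± 0.10 (adjusted p = 0.0198), and this call was lost without knock-in forebrain 11 weeks replicate 1 (adjusted p = 0.0562), knock-in forebrain 11 weeks replicate 2 (adjusted p = 0.0581) and wild-type forebrain 11 weeks replicate 1 (adjusted p = 0.0946). The remaining probe sets gave -0.03 ± 0.05 (1456059_at), -0.21 ± 0.08 (1429370_a_at) and 0.29 ± 0.15 (1456104_at), none of them called. In all, 14 of the 34 genes have several kept probe sets, and for 7 of these the probe sets differ in the sign of the mean difference.

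The catalytic subunits and the deubiquitinase showed no call in any of the genotype comparisons. Psmb5 carries the chymotrypsin-like site, the main target of proteasome inhibitor drugs. Psmb5 read 11816, 10445 and 10583 on the knock-in arrays and 10532, 10216 and 10387 on the wild-type arrays in cerebellum at 4 weeks, and 10033 and 11927 against 10790.3 and 10963 at 11 weeks. Forebrain intensities of Psmb5 were 11338, 11744 and 11583 on knock-in and 13012, 11763 and 11166 on wild-type arrays at 4 weeks, and 11913 and 14392 against 11332 and 12441 at 11 weeks. The genotypes overlapped in all 4 groups, and the mean difference was 0.04 ± 0.06 (adjusted p = 0.611).

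Psmb6 carries the caspase-like site. Psmb6 read 7276, 7172 and 7187 on the knock-in arrays and 7538, 6038 and 7346 on the wild-type arrays in cerebellum at 4 weeks, and 7208 and 9158 against 6444 and 6698 at 11 weeks. Forebrain intensities of Psmb6 were 6713, 7482 and 7711 on knock-in and 7661, 6304 and 6624 on wild-type arrays at 4 weeks, and 6118 and 5343 against 7013 and 7772 at 11 weeks. At 11 weeks the knock-in arrays were the higher ones in cerebellum and the lower ones in forebrain, without overlap in either. The genotype difference was larger in cerebellum than in forebrain by 0.32 ± 0.13, the smallest p of the region interaction, and did not pass (adjusted p = 0.481). Its mean difference was 0.02 ± 0.07 (adjusted p = 0.849).

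Psmb7 carries the trypsin-like site. Psmb7 read 27512, 28998 and 23388 on the knock-in arrays and 25994, 21925 and 25044 on the wild-type arrays in cerebellum at 4 weeks, and 25789 and 30126 against 24389 and 25768 at 11 weeks. Forebrain intensities of Psmb7 were 28816, 30068 and 23668 on knock-in and 32683, 27226 and 23714 on wild-type arrays at 4 weeks, and 28758 and 32512 against 24556 and 24328 at 11 weeks. Knock-in arrays were higher without overlap at 11 weeks in both regions, a description as stated for Psmc1, and overlapped with wild type at 4 weeks. The mean difference of 0.15 ± 0.08 was not called (adjusted p = 0.165). Psmd14 removes ubiquitin chains from substrates as they enter. Psmd14 read 13975, 11859 and 10143 on the knock-in arrays and 13135, 12124 and 12349 on the wild-type arrays in cerebellum at 4 weeks, and 10996 and 12476 against 12823 and 11979 at 11 weeks. Forebrain intensities of Psmd14 were 14696, 12264 and 12217 on knock-in and 12896, 13456 and 12989 on wild-type arrays at 4 weeks, and 15968 and 13943 against 14833 and 13111 at 11 weeks. The genotypes overlapped in all 4 groups, with a mean difference of -0.02 ± 0.07 (adjusted p = 0.875).

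By role, the main probe set of each gene was taken in the mean of 4 groups, where 2243 of all 9105 genes were called. Of 7 alpha ring genes 0 were called, with differences from -0.18 to 0.21. Psma7 and Psma5 were the extremes, at -0.18 ± 0.10 (adjusted p = 0.19) and 0.21 ± 0.08 (adjusted p = 0.0859). Of 7 beta ring genes 1 was higher, with a range from -0.19 to 0.20, where Psmb3 had the lowest value and an adjusted p of 0.072. Of 6 ATPases 1 was lower (range -0.22 to 0.16), with Psmc6 at -0.14 ± 0.05 (adjusted p = 0.057) and Psmc5 at 0.16 ± 0.07 (adjusted p = 0.107). Of the 3 other base subunits Psmd4 was lower, while the scaffold subunits Psmd1 and Psmd2 gave 0.02 ± 0.07 and -0.09 ± 0.05 (adjusted p = 0.902 and 0.242). Of 8 lid genes Psmd8 was lower, and the other 7, Psmd3, Psmd6, Psmd7, Psmd11, Psmd12, Psmd13 and Psmd14, had differences between -0.07 and 0.11. Of the 3 chaperones Psmd10 was lower, and Psmd9 and Psmd5 gave 0.27 ± 0.10 and -0.02 ± 0.06 (adjusted p = 0.0731 and 0.835).

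For each single group, the 3 probe sets with the smallest p were taken, none of them called. In cerebellum at 4 weeks they were Psmd4, Psmd10 and Psmd8, at -0.27 ± 0.08, -0.38 ± 0.16 and -0.25 ± 0.11 (adjusted p = 0.182, 0.309 and 0.328). In cerebellum at 11 weeks they were probe sets 1416290_a_at of Psmc4 (1.67 ± 0.52), 1456104_at of Psmd11 (0.84 ± 0.32) and 1420053_at of Psmb1 (0.41 ± 0.17), with adjusted p = 0.152, 0.245 and 0.289. Probe set 1456104_at of Psmd11, which was above the filter limit on 5 arrays, read 467 and 818 on knock-in and 417 and 275 on wild-type arrays there, without overlap. In forebrain at 4 weeks they were 1420053_at of Psmb1 (0.46 ± 0.14), 1429370_a_at of Psmd11 (-0.45 ± 0.15) and Psmc6 (-0.26 ± 0.09), with adjusted p = 0.063, 0.0685 and 0.0821. Without wild-type forebrain 4 weeks replicate 1, 1 of the 53 was called in that comparison, a fit whose share over all kept probe sets is not given here. Psmd11 read 2289.6, 1620.3 and 2280.2 on knock-in and 2746, 3275 and 2427 on wild-type arrays at 1429370_a_at, and Psmc6 read 5638, 5139.6 and 6018 on knock-in and 6526, 6484 and 7074 on wild-type arrays, and in both the knock-in arrays were the lower ones. In forebrain at 11 weeks they were 1440253_at of Psmd11 (-0.50 ± 0.16), 1416290_a_at of Psmc4 (1.54 ± 0.52) and Psmc5 (0.42 ± 0.16), with adjusted p = 0.16, 0.171 and 0.211. Psmc5, an ATPase of the base, read 16767 and 13464 on knock-in and 11891 and 10648 on wild-type arrays, with knock-in higher.

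The genotype difference was not called as differing between regions or ages for any of the 53 probe sets. For the region interaction limma called 0, against 0.282% of all kept probe sets, and for the age interaction 0, against 0% of all. At an unadjusted p under 0.05 there were 1 and 1 (1.89% and 1.89% of 53), beside 9.14% and 7.51% of all. After Psmb6, the smallest p values of the region interaction belonged to 1456104_at of Psmd11 (0.58 ± 0.29) and to Psmd2 (-0.19 ± 0.11), with adjusted p = 0.588 and 0.655. Psmd2, a scaffold of the base, read 13992, 13942 and 13724 on knock-in and 15629.5, 14621 and 14278 on wild-type arrays in cerebellum at 4 weeks and 13324 and 13379 on knock-in and 15459 and 16918 on wild-type arrays at 11 weeks, without overlap at either age. Its forebrain values were 13467, 12559 and 14609.5 on knock-in and 14785, 13676 and 15205 on wild-type arrays at 4 weeks and 14286 and 16516 on knock-in and 15197 and 13145 on wild-type arrays at 11 weeks, and there the genotypes overlapped. For the age interaction, the smallest p values belonged to 1416290_a_at of Psmc4 and to Psmc1, given above, and then to the main Psmd11 probe set (0.25 ± 0.14, adjusted p = 0.723).

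The wild-type regions differed in 10 proteasome probe sets, 4 higher and 6 lower in cerebellum, averaged over ages. That is 18.9% of 53, against 47.9% of all kept probe sets (26.6% higher and 21.3% lower). Of the 10, 2 were above the filter limit in 1 wild-type region only, the Psmd4 and Psmd11 probe sets described last. With only the probe sets above it in both regions, a filter chosen after seeing the data, 8 of 51 were called (15.7%, against 47% of all), 3 higher and 5 lower. Counting main probe sets alone, 2 of 34 genes were higher and 4 lower, against 4522 of all 9105 genes called either way. Without wild-type cerebellum 4 weeks replicate 2 the count was 6, and without cerebellum 11 weeks replicate 1 or forebrain 11 weeks replicate 2 it was 5. Shares over all kept probe sets are not given for these settings either. The ATPases of the base, which form 1 ring, went both ways: Psmc4 and Psmc5 were higher in cerebellum and Psmc2 and Psmc3 lower. Psmd13, a lid subunit, had the lowest difference of the main probe sets, at -0.43 ± 0.12 (adjusted p = 0.00691), 1.35-fold lower in cerebellum. It read 3551, 2276, 3192, 3036 and 3609 in cerebellum and 4929, 4238, 3598, 4009 and 4469.6 in forebrain on the wild-type arrays, in the order of 3 arrays at 4 weeks and 2 at 11 weeks, and the regions overlapped only through forebrain replicate 3 at 4 weeks and cerebellum replicate 2 at 11 weeks. Psmd1, a scaffold of the base, read 7086, 5990.5, 7567, 7795 and 8063 in cerebellum and 10200.0, 8819, 7449.8, 10803 and 9779 in forebrain, a difference of -0.36 ± 0.10 (adjusted p = 0.00887) with overlap through forebrain replicate 3 at 4 weeks. Both kept their call in every alternative computed.

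**Figure D4:**
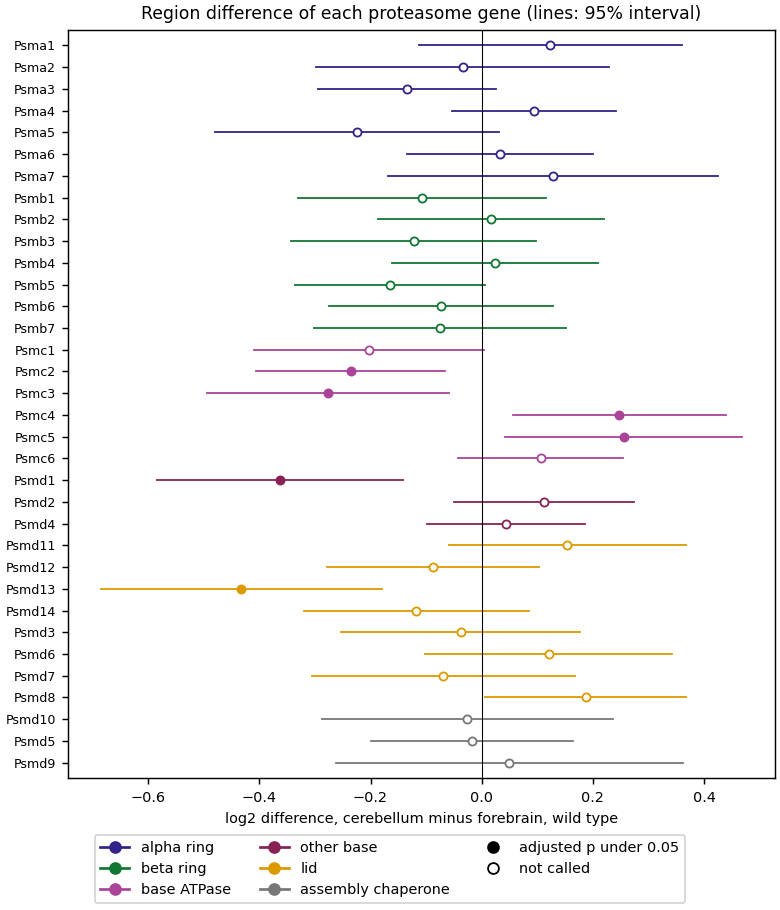
Log2 difference between cerebellum and forebrain in wild-type mice (x axis) for the main probe set of each of the 34 genes (y axis, by role), with 95% intervals as lines and called genes filled. Filled points lie to the left for Psmc2, Psmc3, Psmd1 and Psmd13 and to the right for Psmc4 and Psmc5, and no alpha or beta ring gene is filled.

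Psmc2 read 8729, 7835, 8645, 8717 and 9027 in cerebellum and 11189, 9906, 9777, 9183 and 11009 in forebrain, without overlap, a difference of -0.24 ± 0.08 (adjusted p = 0.0236). Its second probe set, 1435859_x_at, read 6935, 7157, 6349, 7347 and 8193 in cerebellum and 9679, 8244, 8865, 8545 and 8887 in forebrain, also without overlap, and gave -0.28 ± 0.08 (adjusted p = 0.00931). Both Psmc2 probe sets thus read lower in cerebellum by like amounts. Psmc3 read 8541, 6927, 7772, 7405 and 8777 in cerebellum and 10724, 9516, 8689.9, 9004 and 10057 in forebrain, overlapping through cerebellum replicate 2 at 11 weeks and forebrain replicate 3 at 4 weeks, with a difference of -0.28 ± 0.10 (adjusted p = 0.0351). In the other direction, Psmc5 read 14461, 12705, 13141, 13935 and 12806 in cerebellum and 10652, 11684, 11208, 11891 and 10648 in forebrain, without overlap (0.26 ± 0.10, adjusted p = 0.0467). Psmc4 read 6338, 6375, 5604, 6245 and 5836 in cerebellum and 5478, 4130.0, 5273, 5677 and 4949.9 in forebrain, where forebrain replicate 1 at 11 weeks lay above cerebellum replicate 3 at 4 weeks (0.25 ± 0.09, adjusted p = 0.0332). These calls were less stable than those of Psmd1 and Psmd13. Psmc5 lost its call without 9 of the 10 wild-type arrays (adjusted p up to 0.154, without wild-type forebrain 11 weeks replicate 2), Psmc3 without 6 (up to 0.153, without wild-type cerebellum 11 weeks replicate 1) and Psmc4 without 6 (up to 0.138, without wild-type forebrain 11 weeks replicate 2). The main Psmc2 probe set lost it without wild-type cerebellum 4 weeks replicate 2 (adjusted p = 0.0546), wild-type cerebellum 11 weeks replicate 1 (adjusted p = 0.0722) and wild-type forebrain 11 weeks replicate 2 (adjusted p = 0.133), and the second without wild-type cerebellum 11 weeks replicate 1 (adjusted p = 0.0505).

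The other 3 region calls were on second probe sets. For Psmb3, a beta ring subunit, 1417052_at read 3209, 2739, 2723, 3203 and 3087 in cerebellum and 2623, 2306, 2473, 2415 and 2637 in forebrain, without overlap and higher in cerebellum by 0.27 ± 0.08 (adjusted p = 0.0106), whereas the main probe set gave -0.12 ± 0.10 (adjusted p = 0.349). The call at 1417052_at held without any 1 of the 10 wild-type arrays, and was lost in 3 of all 21 alternatives computed (difference down to 0.195, adjusted p up to 0.0902). Probe set 1451725_a_at of Psmd4 read 872, 759, 991, 722 and 691 in cerebellum and 309.8, 100.1, 178, 453 and 204 in forebrain, a difference of 1.68 ± 0.42. It was above the filter limit on 7 arrays, all of cerebellum, and so was tested only through the region where it is high; the main Psmd4 probe set gave 0.04 ± 0.07 (adjusted p = 0.62). The dim probe set 1456104_at of Psmd11 read 463, 351, 556, 417 and 275 in cerebellum and 685, 569, 411, 644 and 691 in forebrain, overlapping (-0.61 ± 0.21). Of its 5 arrays above the limit, the 3 wild-type ones are all of forebrain, the region where it is high. The differences and calls of these 2 probe sets are given as descriptions. When only the 4-week wild-type groups were compared, whose labels all agree on the region, 7 of 53 probe sets were called (13.2%, against 39.5% of all). This alternative was chosen after seeing the data. Only the comparison was restricted, and the standard errors came from the model of all arrays, including those with conflicting region labels.

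Between 4 and 11 weeks in wild-type mice, limma called 0 of 53 proteasome probe sets in cerebellum and 0 in forebrain, and of all kept probe sets 0.198% and 0.0064%. An unadjusted p under 0.05 was reached by 1 and 0 of the 53 (1.89% and 0%), and by 9.31% and 6.15% of all. The smallest p in cerebellum belonged to the dim probe set 1435317_x_at of Psma6, an alpha ring subunit, at 0.80 ± 0.26 (adjusted p = 0.3), and in forebrain to Psmd10 at 0.33 ± 0.17 (adjusted p = 0.828).

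Across the 8 groups the proteasome genes varied little. The fold between the highest and lowest of the 8 group means had a median of 1.26 over the 34 genes, beside 1.65 over the 9105 genes with a kept probe set and 1.495 over the 2146 genes at least as bright as the lower quartile of the proteasome genes. The group means of 28 of the 34 (82.4%) stayed within 0.5 log2 units, as did those of 25.9% of all genes and 39.8% of the bright ones. The most even was the alpha ring gene Psma6, with a fold of 1.09, followed by the lid gene Psmd12 with 1.14. The 6 that went past 0.5 log2 units were Psmd10 (1.51-fold), Psmd1 (1.505), Psma5 (1.48), Psmd9 (1.45), Psmd13 (1.44) and Psmb6 (1.42). For Psmd10, Psmd1 and Psmd13 the lowest group was knock-in cerebellum at 4 weeks and the highest wild-type forebrain at 11 weeks. The intervals set what the arrays could have missed: in the mean of 4 groups the 95% interval of the genotype difference lay within 0.5 log2 units of 0 for 34 of 34 genes (75.5% of all genes), while in single groups it did so for 32, 21, 30 and 18 in cerebellum at 4 and 11 weeks and forebrain at 4 and 11 weeks.

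Within groups, the core particle genes moved together from array to array. The deviations of each gene from its group mean, over 20 arrays with 12 residual degrees of freedom, had a mean correlation of 0.412 over pairs of the 14 alpha and beta ring genes, 0.0825 over pairs of the 20 other proteasome genes and 0.189 over all 34. Over pairs of all 9105 genes the mean was 0.00499, and over the 2146 bright genes 0.0110. The points share arrays, RNA and scaling, so these are descriptions. Wild-type cerebellum 4 weeks replicate 2 had 0 of 14 core genes above the group mean, with a median deviation of -0.13 log2 units, and replicate 1 of that group had 14 of 14 above it (0.08). In knock-in cerebellum at 11 weeks, where the pair of arrays mirror each other by construction, the counts were 0 and 14 of 14, with medians of -0.15 and 0.15. In wild-type forebrain at 4 weeks, replicate 1 lay at 0.15 and replicate 3 at -0.10. The median deviation over all genes was between -0.02 and 0.03 on every array. Psmb3 and Psmb2 followed the other 33 genes most closely (mean correlations of 0.40 and 0.39), and the chaperone Psmd10 least (-0.0867).

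**Figure D5:**
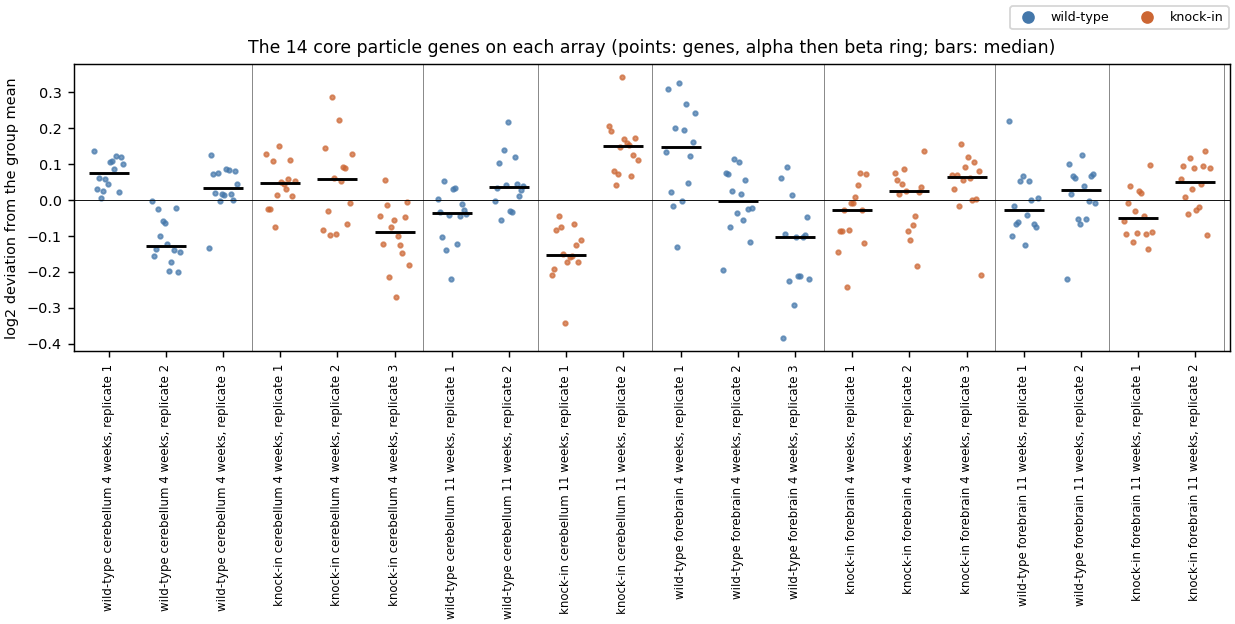
Log2 deviation from the group mean (y axis) of each of the 14 core particle genes (points, alpha then beta ring) on each of the 20 arrays (x axis), with the median as a bar, wild type in blue and knock-in in orange. All 14 points lie below 0 for wild-type cerebellum 4 weeks replicate 2 and knock-in cerebellum 11 weeks replicate 1, and above 0 for wild-type cerebellum 4 weeks replicate 1 and knock-in cerebellum 11 weeks replicate 2.

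The genes that work with the proteasome were followed through a list of 37, of which 26 had a kept probe set annotated to them alone, 45 probe sets in all. In single groups of cerebellum 0 of 45 were called at 4 weeks and 0 at 11 weeks (5 and 5 at an unadjusted p under 0.05, 11.1% and 11.1% of 45 against 13.3% and 14.8% of all). In forebrain 1 was higher and 1 lower at 4 weeks, and 1 was higher and 0 lower at 11 weeks (4.44% and 2.22% of 45, against 7.37% and 0.864% of all). In the mean of 4 groups 7 were higher and 3 lower, 22.2% of 45 against 23.7% of all. By main probe set alone, 3 of the 26 genes were higher and 1 lower, against 2243 of all 9105 genes called either way. Psme1, a subunit of the activator that opens the core particle without ubiquitin, was higher by 0.29 ± 0.07 (adjusted p = 0.0102), and Psme4, an activator of nuclear proteasomes, was lower, at -0.27 (adjusted p = 0.0304), while its other probe sets gave -0.07 and 0.08. Psmg2, a chaperone of alpha ring assembly, was higher by 0.37 ± 0.12 (adjusted p = 0.0365), with -0.23 at its second probe set. Rad23b, which carries ubiquitinated proteins to the proteasome, was higher by 0.24 ± 0.07 (adjusted p = 0.0252). Its group means on knock-in and wild-type arrays were 11578 and 9647 in cerebellum at 4 weeks and 11275 and 10400 at 11 weeks. In forebrain they were 11813 and 11882 at 4 weeks and 17732 and 11897 at 11 weeks. The second Rad23b probe set, 1424222_s_at, was not called.

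The other 6 calls were on second probe sets of genes whose main probe set was not called. Probe set 1434412_x_at of Stub1, a ubiquitin ligase that works with chaperones, gave -0.40 ± 0.07 (adjusted p = 0.00185) and the main one -0.05 ± 0.07. For Ube3a, a ubiquitin ligase, 1425206_a_at gave -0.37 and the main probe set -0.07. Probe sets called higher belonged to the shuttle genes Ubqln2 (1420844_at, 0.47, main -0.04) and Ubqln4 (1448692_at, 0.36, main -0.02). The same held for Ufd1, a partner of the segregase Vcp (1432367_a_at, 0.41, main 0.14), and for Usp14, a deubiquitinase bound to the proteasome (1437714_x_at, 0.47, main -0.03). Between wild-type regions 7 of 45 were higher and 11 lower in cerebellum, 40% against 47.9% of all. Psmb10, the immunoproteasome subunit that can replace Psmb7, was lower in cerebellum, at -1.18 ± 0.11 (adjusted p = 2.23e-07), and the main probe set of Usp14 was lower at -0.80 ± 0.07 (adjusted p = 1.11e-07). Psme1 was lower there, at -0.55 ± 0.10 and Nfe2l1, at -0.48 ± 0.08 (adjusted p = 0.000344 and 7.51e-05).

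Cell type markers were set beside these results with a list of 41 genes for Purkinje cells, granule and pyramidal neurons, glia, endothelium and choroid plexus, of which 37 were measured with 69 kept probe sets. In the mean of 4 groups 1 of the 69 was higher and 5 were lower in knock-in mice, 8.70% against 23.7% of all kept probe sets. Between wild-type regions 45 were higher and 14 lower in cerebellum, 85.5% against 47.9% of all, and the part of cell makeup in the region differences of proteasome genes was not tested.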

How the data were processed

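The deposited array intensities are linear, 1 per probe set and array. Their trimmed means are nearly equal, so the arrays had been scaled before deposit. That scaling did not align the dim part of the range, where the 40th percentile was higher on every knock-in array than on any wild-type array. Quantile normalization, which gives all arrays the same distribution, lowered the count of proteasome calls in the mean of the region and age groups, as described below. The part of this offset in the genotype calls was not tested on its own. Which software summarised the probes is not given in the sources used. Probe sets were named from the platform's annotation. Values were tested as log2(intensity + 16), for the 15627 probe sets that passed an intensity filter (40th percentile, 2 or more arrays), with limma 3.58.1 (lmFit and eBayes, R 4.3.3), 1 mean per group over all 20 arrays (12 residual and 3.45 prior degrees of freedom). Adjusted p-values are two-sided, by Benjamini-Hochberg over all kept probe sets. The script was tested on simulated data.

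The members, lists and tests were chosen with earlier results of these data known. Values on every array were given for Psmb5, Psmb6, Psmb7, Psmd4, Psmd14 and members called between genotypes; for the 3 smallest p where under 5 were called, on the arrays of that comparison; and for called region differences. Alternatives covered the offset, the filter, normalization, arrays in the fit, variance trend, probe sets per gene, a replicate block and each array left out. Counts without probe sets named _x_at, _s_at or _a_at were also taken from the main fit. Arrays have no depth, and their number limits the precision.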

Additional observations from a re-analysis of the deposited data

How the results depend on the processing

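Of the 53 proteasome probe sets, 8 were called in the mean of 4 groups, 2 in forebrain over both ages and 10 between wild-type regions. The 8 became 4 with quantile normalization (1 higher, 3 lower). Leaving probe sets named _x_at, _s_at or _a_at out of the count left 5 of the 8. The fit was the same there, so the names alone set that number. The 2 became 1 with quantile or cyclic loess normalization and 0 when only the compared groups were fitted. With 1 probe set per gene 1 was called, but not 1 of these 2, both of which are second probe sets absent from that fit. The 10 became 6 with 1 probe set per gene and 8 without the probe sets that were above the filter limit in 1 wild-type region only. Leaving out 1 array gave 2 to 10 in the mean of 4 groups, 0 to 2 in forebrain, 5 to 9 between regions, 0 to 1 in forebrain at 4 weeks and 0 in each of the other genotype and age comparisons. The cause was not tested, beyond the fewer genes or arrays of the last settings. Shares over all kept probe sets are not set beside these counts, so a general loss of calls cannot be told apart. No result reversed.

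Deviations of same-numbered arrays across genotypes or regions had correlations from -0.10 to 0.11. Differently numbered arrays were not compared with them, so whether same-numbered arrays share an animal or a batch was not tested. With the replicate block, 8, 2 and 7 were called, and 0 in the other comparisons, with shares over all kept probe sets not given here. No block could be fitted for the age comparisons.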
